A study of Mus musculus with 8 samples.

Results

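The 8 genes Pax3, Msx1, Tfap2a, Snai2, Foxd3, Sox10, Ngfr and Nes are genes of the neural crest, and the accessible chromatin around them was described in 7 libraries of mouse bone marrow stromal cells. The genes were chosen by name and located by their positions in the GENCODE vM1 annotation of the mouse genome build mm9, where they are 8 of 22380 protein-coding genes. Peaks were counted at their transcription start sites, with the peak's centre within 1000 bases of an annotated start, and in or within 50 kb of the gene. Tfap2a is listed in that annotation under its older name Tcfap2a.

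The study divided the mesenchymal stem cell fraction of mouse bone marrow, positive for Sca-1 and PDGFR-α, into subpopulations, sorted them by surface antigens and compared their open chromatin by ATAC-seq, a method that marks accessible DNA by insertion of sequencing adapters with the Tn5 transposase. All 7 libraries, ATAC1 to ATAC7, were labelled as stromal cells of the bone marrow from wild type C57BL/6J mice at 6 weeks after birth, and each list of peaks was called by the authors against an Input control. Which sorted population each title represents is not given in the labels. With 1 library per title there was no replicate check, so no difference between libraries below was tested. Intervals cover counting error only, and because peaks at one locus share much of their Input reads, an overlap of intervals is a description and not a test.

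The neural crest is a transient population of cells at the border of the neural plate that leaves the neural tube, migrates and gives rise to peripheral neurons and glia, melanocytes and much of the skeleton of the face. Transcription factors of the border region, such as Pax3, Msx1 and Tfap2a, act before specifier factors such as Snai2, Foxd3 and Sox10. Part of the stromal cells of the bone marrow has been traced to the neural crest, and nestin and the low-affinity nerve growth factor receptor serve as markers of stromal cells there.

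The lists held 15188 to 32280 peaks, with ATAC2, ATAC5 and ATAC6 the longest and ATAC3, ATAC4 and ATAC7 the shortest. The fold over Input, which is the scaled number of library reads divided by the Input reads, had a median of 5.57 to 10.8 over the start-site peaks of a library, with the highest medians in ATAC5 and ATAC6. Among 10 stromal marker genes, 1 to 4 (10% to 40%) had a start-site peak in a library, below the share over all protein-coding genes in each (42.0% to 52.7%), with peaks at Pdgfra in 5 libraries and at Ly6a, which encodes Sca-1, in none. Among 8 haematopoietic marker genes the range was 2 to 4 (25% to 50%), and Spi1, a factor of myeloid and B-lymphoid cells, had a peak in all 7 libraries. Among 6 endothelial genes the count was 2 in ATAC5 and 0 in the others, and among 5 pericyte genes it was 3 in ATAC5, 2 in ATAC2 and 0 in the others. The part of such cells in the results below was not tested, and in bulk material fewer cells with an open site and a less open site per cell cannot be told apart. Per the study's methods, the cells were sorted as negative for CD31, CD45 and TER119.

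Start-site peaks were rare among the neural crest genes, and Snai2 was the one gene of the 8 with such a peak in every library. Msx1 had a start-site peak in ATAC2, ATAC5 and ATAC6, and Nes and Tfap2a had one in ATAC5. No start-site peak was called at Pax3, Foxd3, Sox10 or Ngfr in any library. Of the 56 combinations of gene and library, 12 (21.4%) had a start-site peak, against 47.5% over all protein-coding genes. By library, the count was 4 of 8 in ATAC5, where 52.7% of all protein-coding genes had a start-site peak, 2 in ATAC2 (all genes 50.2%) and 2 in ATAC6 (51.5%). It was 1 each in ATAC1 (49.0%), ATAC4 (43.6%), ATAC3 (43.5%) and ATAC7 (42.0%). In each library the share of the 8 genes was below that of all genes, and 4 of the 8 had a start-site peak in at least 1 library, against 56.6% of all genes. Where no peak is given, none passed the threshold set by the authors, which does not show that the site was closed.

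**Figure D1:**
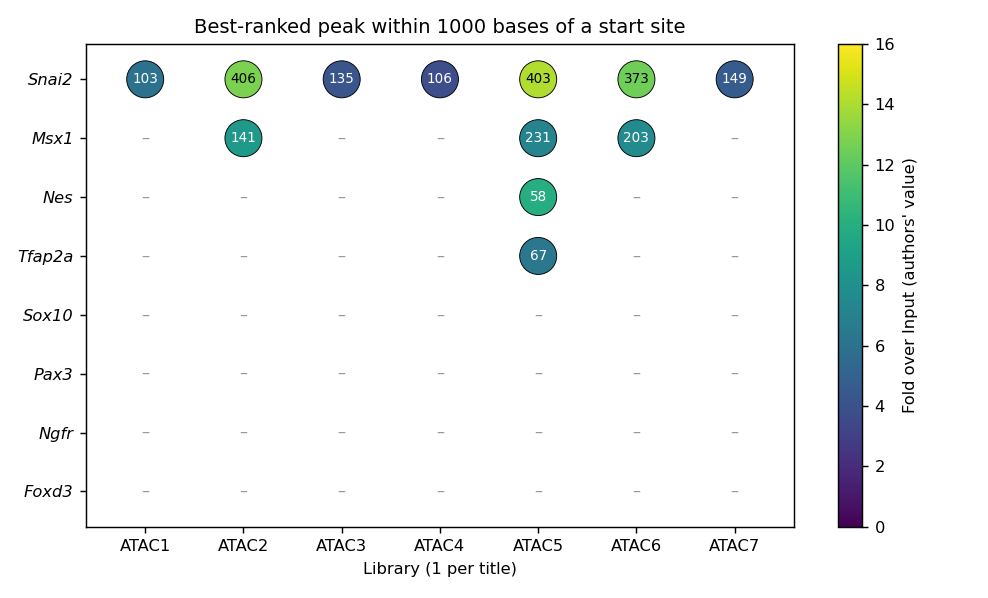
Each circle is the best-ranked called peak within 1000 bases of a start site of the gene (vertical axis) in a library (horizontal axis), the number in it is its library reads, its colour is the fold over Input, and a dash marks no called peak. Snai2 has a circle in all 7 libraries, Msx1 in 3, Nes and Tfap2a in ATAC5, and the other 4 genes have none.

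Among the border genes, Msx1, a homeodomain repressor of the neural plate border, had a start-site peak in ATAC2, ATAC5 and ATAC6 and none in the other 4 libraries. The gene lies on the minus strand at chr5:38211724-38215822, and the peaks spanned its start site. The ATAC2 peak held 141 library reads and 26 Input reads, a fold of 8.57 (95% counting interval 5.61 to 13.6). In ATAC5 the peak held 231 reads against 55 in Input (fold 7.19, 5.34 to 9.84). The ATAC6 peak held 203 reads against 42 (fold 7.61, 5.44 to 10.9). The 3 folds lay between 7.19 and 8.57, and the peaks ranked in the upper part of each list, at 23.7%, 31.2% and 27.8% of the list counted from the best-ranked peak.

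In ATAC1, ATAC3, ATAC4 and ATAC7, peaks with 26 to 55 Input reads, the range of the Msx1 peaks, were called down to a fold of about 2.0 in each list, and 95% of them had folds above 2.65 to 2.98, depending on the list. The median fold of start-site peaks was lower in these 4 libraries (5.57 to 7.64) than in ATAC2, ATAC5 and ATAC6 (8.12 to 10.8), so a weaker Msx1 site below their thresholds cannot be told apart from an absent one. Of all protein-coding genes, 1.85% had start-site peaks in exactly ATAC2, ATAC5 and ATAC6. These are also the longest lists. With each list reduced to the number of peaks in the shortest one, the Msx1 peak was still called in all 3.

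The region of the 3 Msx1 peaks, chr5:38215800-38215902, is shown because it marks where the libraries differed at this start site. It is written along the minus strand, 5′ to 3′, with the part shared by the peaks of all 3 libraries in capitals, and it holds 1 match to the Sp motif GGGCGG on the other strand.
Msx1 start-site region: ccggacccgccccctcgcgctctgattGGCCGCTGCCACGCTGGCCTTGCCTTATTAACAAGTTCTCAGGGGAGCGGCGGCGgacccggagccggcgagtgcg

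Pax3, a paired-box factor of the dorsal neural tube and of melanocyte and muscle precursors, lies at chr1:78097842-78193709 on the minus strand. Its window held 1 peak in all, called in ATAC6, whereas 18.7% of all genes had no peak in their window in any library and 2.72% had peaks in exactly 1 library. This peak lay between genes, 20032 bases upstream of the Pax3 start site, and held 68 library reads against 29 in Input, a fold of 3.69 (2.36 to 5.92). Its rank, at 61.8% of the list, was in the lower part. A window of 300 bases at its centre had a GC content of 80.7%, against a median of 53% over all merged regions. The sequence is given along the minus strand at chr1:78213637-78213846, with matches to the TFAP2 motif GCCNNNGGC and the Sp motif on either strand in capitals.
Pax3 upstream peak, ATAC6: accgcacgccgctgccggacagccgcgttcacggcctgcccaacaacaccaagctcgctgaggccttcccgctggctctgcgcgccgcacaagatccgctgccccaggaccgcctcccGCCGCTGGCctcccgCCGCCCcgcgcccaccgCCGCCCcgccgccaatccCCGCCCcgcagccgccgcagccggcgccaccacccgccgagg

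Tfap2a encodes AP-2α, a factor of the neural plate border and of early neural crest and epidermis. The gene lies on the minus strand at chr13:40811044-40829192, with annotated start sites at 40829192 and 40825787. An intronic region, centred 10948 bases past the first start site, had a peak in all 7 libraries. Its nearest annotated start site was that of the noncoding gene Gm16989, 4933 bases away. The peak held 537 library reads and 58 Input reads in ATAC5 (fold 15.9, 12.1 to 21.2) and 551 and 57 in ATAC6 (fold 15.2, 11.6 to 20.4). It held 368 and 57 in ATAC2 (fold 10.2, 7.70 to 13.7) and 338 and 51 in ATAC1 (fold 8.14, 6.05 to 11.2). These were the libraries with the larger folds. In ATAC3 the counts were 240 and 50 (fold 4.84, 3.56 to 6.71), in ATAC7 they were 189 and 45 (fold 4.64, 3.34 to 6.57) and in ATAC4 168 and 42 (fold 4.53, 3.21 to 6.51).

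The intervals of ATAC5 and ATAC6 did not overlap those of ATAC1, ATAC3, ATAC4 and ATAC7. Folds also differed between whole libraries in this way: relative to the median of all peaks of its library away from start sites, the Tfap2a intronic peak was 1.54 times the median in ATAC6, 1.44 times in ATAC5 and 0.990 times in ATAC1. It was 0.668 times the median in ATAC7, 0.672 in ATAC4, 0.761 in ATAC3 and 0.975 in ATAC2. The order of the libraries was thus nearly kept on that scale, over a narrower range, with ATAC5 and ATAC6 above their library's median and the other 5 below it. Only 53 bases lay within the peaks of all 7 libraries.

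At the start sites of Tfap2a, 2 peaks were called in ATAC5, both near the second start site and within introns of Tfap2a and of the overlapping noncoding gene Gm16989. The peak 514 bases from that start held 67 library reads against 18 in Input (fold 6.37, 3.74 to 11.4), and the peak 941 bases from it held 75 against 42 (fold 3.06, 2.07 to 4.58). Both were weak by rank, at 89.1% and 94.1% of the ATAC5 list. Neither was counted when a peak had to lie within 500 bases of a start, or when the lists were reduced to equal numbers.

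Among the specifier genes, Snai2, the zinc-finger repressor Slug that acts in the epithelial-mesenchymal transition of the neural crest, had a start-site peak in all 7 libraries, as did 36.8% of all protein-coding genes. The gene lies on the plus strand at chr16:14705945-14709488, with no other annotated gene's start site in its window. The best-ranked start-site peak held 406 library reads and 50 Input reads in ATAC2 (fold 12.8, 9.55 to 17.6), 403 and 49 in ATAC5 (fold 14.1, 10.5 to 19.4) and 373 and 47 in ATAC6 (fold 12.5, 9.21 to 17.3). Their intervals overlapped one another. In ATAC1 it held 103 and 21 (fold 6.02, 3.74 to 10.1), in ATAC7 149 and 36 (fold 4.57, 3.16 to 6.77), in ATAC3 135 and 33 (fold 4.13, 2.80 to 6.24) and in ATAC4 106 and 32 (fold 3.75, 2.51 to 5.76).

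The folds of the best-ranked Snai2 peak were thus higher in ATAC2, ATAC5 and ATAC6 than in the other 4 libraries. For this peak, the intervals of ATAC3, ATAC4 and ATAC7 did not reach those of ATAC2, ATAC5 and ATAC6, while that of ATAC1 overlapped those of ATAC2 and ATAC6. Farther from the start site, further peaks were called in ATAC2 at chr16:14705329-14705585 (215 library reads against 21, fold 16.2, 10.3 to 26.7), in ATAC5 at chr16:14705372-14705629 (196 against 21, fold 16, 10.2 to 26.4) and in ATAC7 at chr16:14705319-14705591 (85 against 15, fold 6.25, 3.59 to 11.7). At the edge of these, ATAC1 had a further peak at chr16:14705577-14705612 (70 against 20, fold 4.30, 2.59 to 7.46). At this position too the fold was lower in ATAC1 and ATAC7 than in ATAC2 and ATAC5. Relative to the median fold of all start-site peaks of the library, the Snai2 peak was 1.58 times the median in ATAC2, 1.30 times in ATAC5 and 1.21 times in ATAC6. It was 0.807 in ATAC7, 0.788 in ATAC1, 0.741 in ATAC3 and 0.629 in ATAC4. This best-ranked peak stood above the library's median in the 3 longest lists and below it in the other 4. The further peak was 1.99 times the median in ATAC2, 1.47 times in ATAC5, 1.10 times in ATAC7 and 0.562 times in ATAC1. By rank the best-ranked peak stood highest in ATAC2, at 5.35% of the list, and lowest in ATAC4, at 76.7%. The further peak stood at 31.6% in ATAC2, 58.9% in ATAC5, 59.3% in ATAC1 and 96.6% in ATAC7, there near the end of the list. When peaks had to reach a fold of 5, Snai2 had a start-site peak in 5 libraries.

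**Figure D2:**
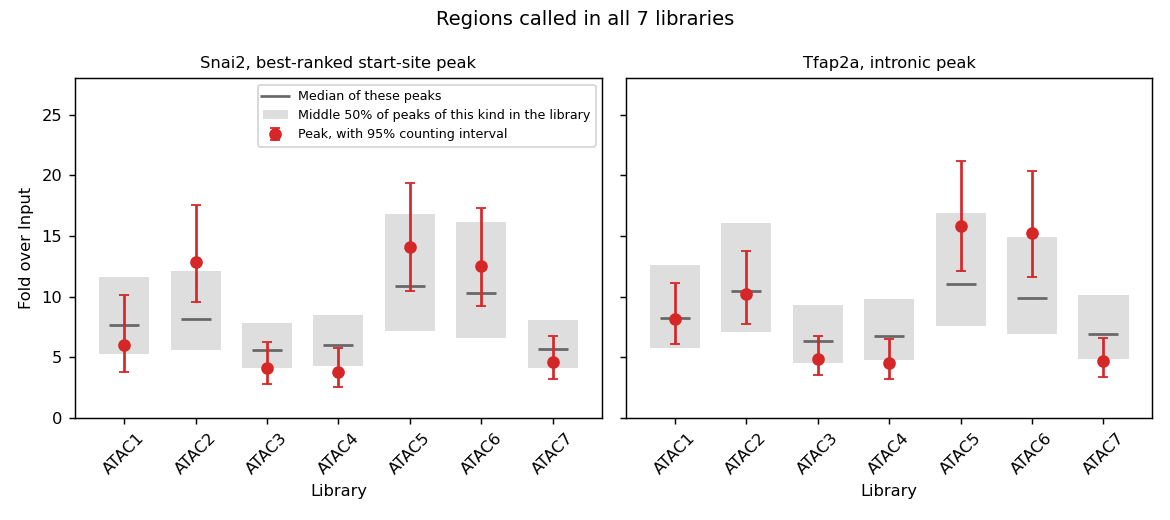
Fold over Input (vertical axis, from 0) in each library of the best-ranked start-site peak of Snai2 (left) and of the intronic peak of Tfap2a (right), with 95% counting intervals; grey boxes show the middle 50% and grey lines the median of all start-site peaks (left) or of all other peaks (right) of that library. The Snai2 points lie above the line in ATAC2, ATAC5 and ATAC6, and the Tfap2a points lie above it in ATAC5 and ATAC6.

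The extent of the open stretch at Snai2 also differed. The 12 start-site peaks comprised 3 in ATAC2, 2 each in ATAC1, ATAC5 and ATAC7, and 1 each in ATAC3, ATAC4 and ATAC6. The ATAC2 peaks reached from 616 bases before the start site to 441 bases past it, and the ATAC2 peak at chr16:14705971-14706386, with 253 library reads against 39 (fold 10.2), was the one peak wholly past the start. No single base lay within peaks of all 7 libraries, since the ATAC1 peaks of 36 and 29 bases flanked the stretch that the other lists shared. The 240 bases at chr16:14705642-14705881 lay within peaks of the other 6.

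Farther upstream, a region centred 4299 bases before the Snai2 start site, chr16:14701600-14701692, was called in ATAC2, with 36 library reads against 2 in Input (fold 28.3, 7.32 to 244), and in ATAC6, with 47 against 2 (fold 36.8, 9.69 to 314). These were the highest folds near any of the 8 genes, but they rest on 2 Input reads and their intervals are correspondingly wide. Both Snai2 sequences are given along the plus strand, because they are the stretch shared by 6 lists and the most distant upstream site. Capitals mark the bases within peaks of those 6 libraries in the first, chr16:14705642-14705895, and within the peaks of both libraries in the second. Neither sequence as printed holds a match to any of the 8 motifs searched.
Snai2 start-site peak, ATAC2: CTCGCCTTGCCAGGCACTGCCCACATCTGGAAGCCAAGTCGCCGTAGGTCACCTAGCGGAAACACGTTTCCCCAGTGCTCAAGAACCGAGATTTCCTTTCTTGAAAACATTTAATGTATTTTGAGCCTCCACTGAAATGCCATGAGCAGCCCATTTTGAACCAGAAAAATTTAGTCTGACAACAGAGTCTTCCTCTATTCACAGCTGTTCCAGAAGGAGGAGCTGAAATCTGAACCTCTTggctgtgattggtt
Snai2 upstream region: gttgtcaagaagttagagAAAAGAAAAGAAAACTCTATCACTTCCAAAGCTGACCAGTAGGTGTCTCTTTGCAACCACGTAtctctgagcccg

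Foxd3, a forkhead repressor of early neural crest, lies at chr4:99322990-99325362 and had no peak in the gene or within 50 kb of it in any library. Of all protein-coding genes, 18.7% had none. Its promoter, taken as 250 bases before to 50 bases after the start site, had a ratio of observed to expected CpG of 0.793, above that of 73.0% of promoters. Promoters with a ratio of at least 0.6, the class to which that of Foxd3 belongs, had a start-site peak in at least 1 library in 88.9% of 10110 genes.

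Sox10, the SOX factor of neural crest, glia and melanocytes, lies at chr15:78985343-78994920 on the minus strand. There was no peak at its start sites or in the gene. Its window held 18 peaks, and 17 of them were at start sites of the neighbouring genes Micall1, 1700088E04Rik and Polr2f. The remaining peak, in ATAC2, lay in an intron of Micall1, 32779 bases past the Sox10 start site, and held 30 library reads against 8 (fold 5.92, 2.65 to 15). The peaks near Sox10 were thus, with this exception, those of other promoters. Its own promoter had a CpG ratio of 0.223, and of promoters below 0.6, 30.1% had a start-site peak in at least 1 library.

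Among the receptor and cytoskeletal genes, Nes, which encodes the intermediate filament nestin, had a start-site peak in ATAC5. The gene lies on the plus strand at chr3:87775000-87784373. The peak, chr3:87774954-87775035, spanned the start site and held 58 library reads against 10 in Input (fold 9.93, 5.03 to 21.8). It ranked at 76.4% of the ATAC5 list, and it was not among the peaks left when the lists were reduced to equal numbers. Of all genes, 1.34% had start-site peaks in exactly ATAC5. Peaks with 10 Input reads were called in the other libraries down to folds of 3.19 to 4.58.

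Beyond its start site, Nes had 2 regions between genes that were each called in ATAC1, ATAC2, ATAC5, ATAC6 and ATAC7 and in neither ATAC3 nor ATAC4. The upstream region, chr3:87764620-87765033, was centred 10174 bases before the start site and 8760 bases from the start of Crabp2. It held 207 library reads against 44 in ATAC5 (fold 8.06, 5.80 to 11.4), 141 against 45 in ATAC2 (fold 4.95, 3.52 to 7.09), 119 against 44 in ATAC6 (fold 4.26, 2.99 to 6.16), 131 against 44 in ATAC1 (fold 3.66, 2.58 to 5.27) and 80 against 27 in ATAC7 (fold 3.27, 2.09 to 5.27). ATAC5 had the highest fold, and its interval overlapped those of ATAC2 and ATAC6 but not those of ATAC1 and ATAC7.

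The downstream region, chr3:87790864-87791057, was centred 15960 bases past the Nes start site and 13318 bases from the start of Bcan. It held 288 library reads against 44 in ATAC5 (fold 11.2, 8.14 to 15.8), 136 against 38 in ATAC6 (fold 5.63, 3.91 to 8.30), 118 against 31 in ATAC1 (fold 4.67, 3.13 to 7.19), 104 against 37 in ATAC2 (fold 4.44, 3.03 to 6.65) and 79 against 27 in ATAC7 (fold 3.23, 2.06 to 5.2). Here too ATAC5 had the highest fold, and its interval overlapped that of ATAC6 alone. Each ATAC5 peak stood near or below the median of the non-start-site peaks of its library, at 0.732 times the median upstream and 1.02 times downstream. One further peak, chr3:87763402-87763505, was called in ATAC5, with 48 reads against 10 (fold 8.21). None of the 25 peaks in the Nes window lay in the gene away from its start sites, and 13 were at start sites of other genes.

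The Nes sequences are shown because they mark the start-site peak of ATAC5 and the distal site shared by 5 lists, both along the plus strand. The first is the part of the peak before the start site, chr3:87774954-87774999, and holds no motif match. The second is the ATAC5 peak at chr3:87764931-87765033, with the bases common to the 5 libraries in capitals, and it holds 1 match each to the TFAP2 and Sp motifs, which overlap.
Nes start-site peak, ATAC5: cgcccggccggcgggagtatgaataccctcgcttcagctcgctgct
Nes upstream region, ATAC5 peak: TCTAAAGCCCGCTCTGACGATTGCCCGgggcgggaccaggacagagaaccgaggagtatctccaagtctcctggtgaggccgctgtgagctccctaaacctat

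**Figure D3:**
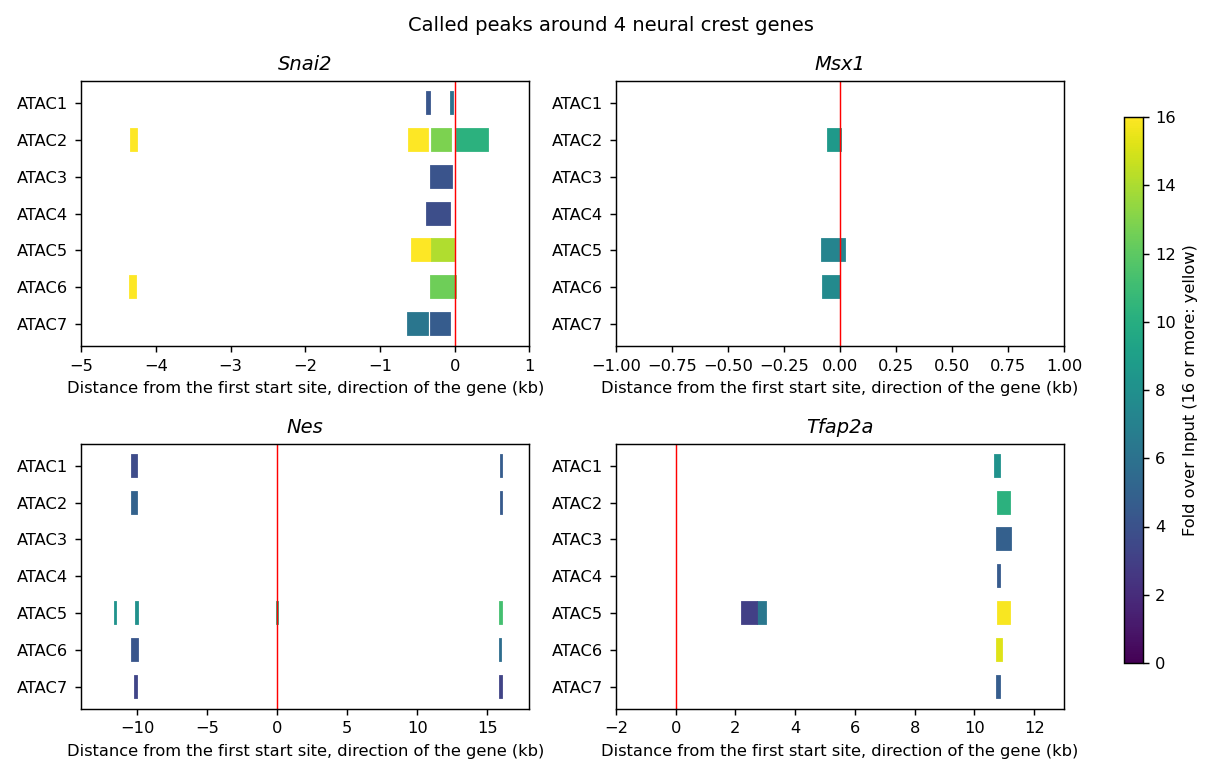
Called peaks (boxes, drawn to scale) in the 7 libraries around Snai2, Msx1, Nes and Tfap2a, by distance in kb from the gene's first start site (red line, horizontal axis, positive in the direction of the gene) and coloured by fold over Input. Peaks of Snai2 and of the Tfap2a intron are present in all 7 libraries, those at the Msx1 start in 3, and the distal peaks of Nes in 5.

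Ngfr, the low-affinity nerve growth factor receptor p75, lies at chr11:95430132-95449049 on the minus strand and had no peak at its start site or in the gene. One region in its window, chr11:95382170-95382287, was called in 4 libraries. It lay beyond the 3′ end of the gene, 66821 bases from the Ngfr start site and 6344 bases from the start of Nxph3, its nearest start site. It held 80 library reads against 19 in ATAC5 (fold 7.21, 4.33 to 12.6), 51 against 16 in ATAC6 (fold 5.02, 2.82 to 9.43), 61 against 16 in ATAC1 (fold 4.68, 2.67 to 8.70) and 55 against 17 in ATAC7 (fold 3.57, 2.04 to 6.57). The fold was highest in ATAC5 and lowest in ATAC7, on Input counts that were nearly the same. The sequence is given along the minus strand because it contains, within the 14 bases common to the 4 libraries, which are in capitals, the E-box CAGGTG that Snail-family factors can bind. A match to these letters is a description of the sequence and not a measured binding site.
Ngfr downstream region: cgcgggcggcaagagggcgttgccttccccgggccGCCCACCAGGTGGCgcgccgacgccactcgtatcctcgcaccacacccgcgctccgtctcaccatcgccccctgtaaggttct

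Counted over the whole windows, the 8 genes had 74 peaks: 18 at their own start sites, 30 at start sites of other genes, 7 in the gene body and 19 elsewhere. The 7 in the gene body were all those of the Tfap2a intron. By gene there were 25 at Nes, 18 at Sox10, 14 at Snai2, 9 at Tfap2a, 4 at Ngfr, 3 at Msx1, 1 at Pax3 and 0 at Foxd3, with a median of 6.5 against 17 over all protein-coding genes. The genes richest in peaks, Nes and Sox10, were those with the most peaks at other genes' start sites. In number of peaks, Nes exceeded 64.5% of all genes and Sox10 51.6%, whereas Snai2, the gene with the most start-site peaks of the 8, exceeded 43.1%.

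By library the windows held from 5 peaks in ATAC3, 7 in ATAC4 and 9 in ATAC7 to 10 in ATAC1, 13 in ATAC2, 14 in ATAC6 and 16 in ATAC5. The ratio of the most, in ATAC5, to the fewest, in ATAC3, was 3.2 (95% counting interval 1.12 to 11.2), and the whole lists of these libraries had a ratio of 1.96. With lists of equal length the ratio was 2, and without the peaks at start sites of other genes it was 5.5. Set against list length, the windows held 0.593 per 1000 peaks in ATAC7, 0.508 in ATAC5 and 0.312 in ATAC3. The high count of ATAC5 thus went with a long list, whereas ATAC7 had the highest share from the shortest list. The number of the 8 genes with any peak in the window was 7 in ATAC6 (76.5% of all genes), 6 in ATAC5 (77.6%), 5 each in ATAC1 (73.7%), ATAC2 (77.4%) and ATAC7 (67.9%) and 4 each in ATAC3 (68.5%) and ATAC4 (67.8%). Sox10, Nes, Snai2 and Tfap2a, 4 of the 8, had a peak in the window in all 7 libraries, against 63.8% of all genes.

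**Figure D4:**
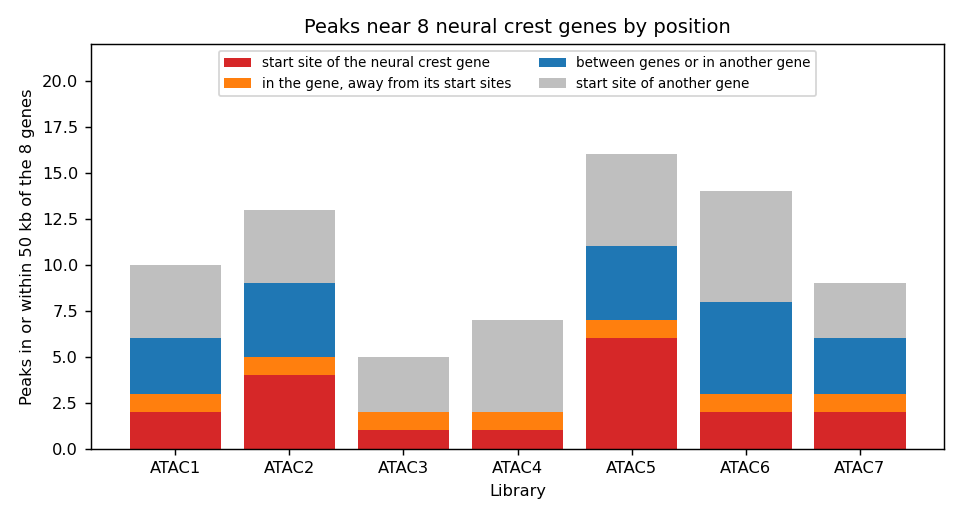
Number of called peaks in or within 50 kb of the 8 genes (vertical axis, from 0) in each library, with colours for the position of the peak. ATAC5 has 16 peaks, 6 of them at start sites of the 8 genes, and ATAC3 has 5, of which 1 is at such a start site.

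Merged over libraries, the peaks near the 8 genes formed 19 regions, of which 5 (26.3%) were called in all 7 libraries and 7 (36.8%) in 1. Over all 50683 merged regions of the series, 16.6% were called in all 7 and 40.9% in 1. Of the 5 regions common to all lists, 3 were at start sites of other genes, and the remaining ones were the Snai2 start site and the Tfap2a intron. None of the 7 regions between genes or in another gene was called in every library. With 7 regions, this is not far from the 16.6% of all regions, a share that includes start sites.

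The promoters of the 8 genes differed in base composition, which the choice of the genes did not use. Msx1 had a GC content of 70%, Ngfr 68.3%, Foxd3 65.7%, Sox10 64.7%, Nes 59.7%, Tfap2a 59%, Pax3 58.7% and Snai2 50.7%, against a median of 55% over all promoters. Snai2, with a start-site peak in every library, thus had the lowest GC content of the 8. The CpG ratio was at least 0.6 in Msx1, Foxd3 and Nes, a class that held 45.2% of all promoters. In this class the share with a start-site peak ranged from 72.8% in ATAC7 to 85.2% in ATAC5, and among the other promoters from 16.6% to 25.9%. The 5 genes below that ratio were Sox10, Pax3, Ngfr, Snai2 and Tfap2a. Where a gene had several start sites, its promoter was taken at the first one. The values of Tfap2a, with a CpG ratio of 0.587, thus do not describe its second start site, near which its ATAC5 peaks lay.

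Motif matches were searched on both strands of these promoters, for 8 motifs in all. These were the Snail E-box with the letters CAGGTG, the TFAP2 motif with the letters GCCNNNGGC, the SOX motif with the letters AACAAAG, the homeodomain motif with the letters TAATTA, the motif of paired domains with the letters GTCACG, the Sp motif with the letters GGGCGG, the AP-1 motif with the letters TGANTCA and the TATA box with the letters TATAAA. Matches of the TFAP2 and Sp motifs can overlap. The Sp motif, present in 43.4% of all promoters, was found in Nes, Ngfr, Snai2, Tfap2a and Msx1. The paired-domain motif, in 9.46% of all promoters, was found in Pax3 and Foxd3, and the Snail E-box, in 19.9%, was found in Msx1. The Sox10 promoter held none of the 8. Among the 7 regions between genes or in another gene, AP-1 matches within 300 bases at the centre were found at the downstream Nes region, the ATAC5 peak of Nes and the ATAC2 peak near Sox10, with 21.0% of all merged regions holding one. Sp matches were found at the Pax3 peak, the upstream Nes region and the Ngfr region (31.0% of all regions), and TFAP2 matches at the Pax3 peak and the upstream Nes region (17.9%). The Ngfr region also held the Snail E-box (17.8%) and the upstream Snai2 region a TATA box (8.75%), and the SOX, homeodomain and paired-domain motifs were in none of the 7.

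Other genes of the neural crest programme were examined as a list of 46, which contains the 8 and the factors, receptors and derivative genes that accompany them. Of these, 24 (52.2%) had a start-site peak in at least 1 library, against 56.6% of all genes, and 9 (19.6%) had one in all 7, against 36.8%. They included Snai1, Snai2, Ets1, Id2 and Myc among the specifiers, the intermediate filament gene Vim, the integrin gene Itga4 and the melanocyte factor Mitf. Ets1 and Vim had the highest folds, 7.84 to 25 and 9.19 to 23.1 over the libraries. At Snai1, the paralogue of Snai2, the folds were 4.17 to 11.9, with library reads of 187 to 519. As background, Vim, Ets1, Id2 and Myc are also used widely outside the neural crest.

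Among the 8 border genes, the number with a start-site peak was 3 in ATAC2, in ATAC5 and in ATAC6 and 0 in the other 4 libraries. Msx1 and Dlx5 were called in all 3 of these, Msx2 in ATAC2 and ATAC6 and Tfap2a in ATAC5. The shares of all genes in those 4 were 42.0% to 49.0%, and in ATAC2, ATAC5 and ATAC6 50.2% to 52.7%. The count for the 13 specifiers was 9 (69.2%) in ATAC2, ATAC5 and ATAC6, 8 (61.5%) in ATAC1, 7 (53.8%) in ATAC7 and 6 (46.2%) in ATAC3 and ATAC4, the last near the 43.5% and 43.6% of all genes. Among the 10 receptor, surface and cytoskeletal genes it was 7 (70%) in ATAC5, 6 (60%) in ATAC6, 5 (50%) in ATAC4, 4 (40%) in ATAC1, ATAC2 and ATAC3, and 2 (20%) in ATAC7, above the share of all genes in ATAC4, ATAC5 and ATAC6 and below it in the others. Of the 15 derivative genes, 3 (20%) had a peak in ATAC2 and 2 (13.3%) in every other library, below the share of all genes in each, with Mitf among them in each. With lists of equal number, start-site peaks were called at 3 border genes in ATAC6 (37.5%, all genes 45.8%), at 2 (25%) in ATAC2 (41.5%) and ATAC5 (45.5%) and at 0 in the other 4 libraries (42.0% to 44.2%). The specifiers then had 7 in ATAC1, ATAC6 and ATAC7, 6 in ATAC3, ATAC4 and ATAC5 and 5 in ATAC2, so that the order of the libraries was not kept. The receptor, surface and cytoskeletal genes had 5 in ATAC4 and ATAC6, 4 in ATAC2, ATAC3 and ATAC5, 3 in ATAC1 and 2 in ATAC7, with ATAC5 (40%) now below the share of all genes. The derivative genes had 2 in each library. At a fold of at least 5, the receptor, surface and cytoskeletal genes had 5 in ATAC5 (all genes 49.7%). They had 4 in ATAC6 (47.6%), ATAC2 (43.2%) and ATAC1 (41.6%), 3 in ATAC4 (31.1%) and 2 in ATAC3 (28.7%) and ATAC7 (27.6%). At that fold ATAC4 and ATAC6 were thus below the share of all genes, and ATAC5 was near it.

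**Figure D5:**
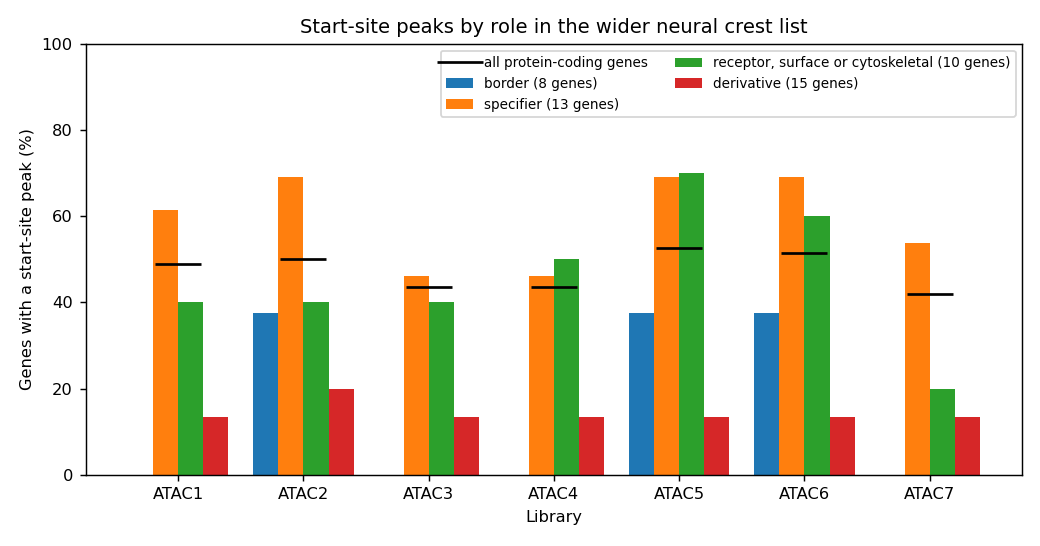
Percentage of genes with a start-site peak (vertical axis) in each library for the 4 role groups of the 46-gene list (bars, from 0), with the percentage over all protein-coding genes as black lines. Border genes have bars in ATAC2, ATAC5 and ATAC6 and none in the other 4 libraries, and the derivative genes lie below the line in all 7.

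Of the 24 listed genes with a start-site peak, 9 (37.5%) had it in ATAC2, ATAC5 or ATAC6 and in no other library, against 10.8% of all genes with a start-site peak. Of the 8 genes first named, Msx1, Nes and Tfap2a had this pattern, against 6.13% of all protein-coding genes. The 9 were Msx1, Msx2, Dlx5, Tfap2a, Tfap2c, Rxrg, Ret, Nes and Cdh19. These are also the 3 longest lists, and the count changed with list length. With lists of equal number, 4 of 18 genes (22.2%) had this pattern, against 5.45% of all genes with a start-site peak. They were Msx1, Msx2 and Dlx5 of the 9 and Sox8 besides, while Tfap2a, Tfap2c, Rxrg, Ret, Nes and Cdh19 lost all their start-site peaks. At a fold of at least 5 it was 8 of 21 (38.1%), against 19.8%. The paralogue of Msx1, Msx2, had a peak in ATAC2 and ATAC6, with 46 to 90 library reads and folds of 3.94 to 4.27. The best-ranked peak at Tfap2c, a paralogue of Tfap2a, in ATAC2, held 81 reads against 32 (fold 4.0). Ret, the receptor for glial cell line-derived neurotrophic factor, had one in ATAC5 and ATAC6, with 110 to 161 reads and folds of 2.89 to 4.0. Cdh19, a cadherin of Schwann cell precursors, had one in ATAC2 with 49 reads against 4 (fold 19.3), while the glial genes S100b and Gfap had none in any library.

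The genes most like each member in the rank of the best start-site peak over the 7 libraries were also listed. The measure was the mean absolute difference in rank percentile, with 100 where no peak was called, and each gene named had the same calls in 7 of 7 libraries. For Snai2 they were Vasn (2.08 percentage points), Tmem45a (4.24) and Tpm4 (4.26). For Msx1 they were 5430407P10Rik (1.17), Klrg2 (1.46) and Stard13 (1.55). For Nes they were Myo5b (0.00953), Kcnq3 (0.0150) and Zfp251 (0.0526), and for Tfap2a they were Tle2 (0.00454), Gm4392 (0.0114) and Sema4a (0.0168). The last 2 genes rest on 1 library each, so small differences are reached easily there.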

How the data were processed

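ATAC-seq peaks were measured in 7 libraries, ATAC1 to ATAC7, each of 1 title. Per the labels and the study's methods, the authors aligned reads to mm9 with bowtie and called peaks per library with CisGenome against Input (P cutoff 1e-05, FDR under 0.01). The protocol given in the labels describes an RNA preparation, so the study's ATAC-seq methods were followed. The bowtie version, any shift of reads for Tn5 and any removal of duplicates are not given in the sources used here.

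The deposited tables have no header, and column meanings were read from the values. The authors' tables give read counts of library and Input in an outer region around each peak, a fold (the ratio of scaled library reads to Input reads plus 0.01), signal columns of the peak caller, which were not used, and the rank of each peak, which was. Total reads per library are not given there, so the precision of a fold was taken from its own counts, as an exact 95% binomial interval of library against Input reads. Coordinates are printed as deposited, and starts could be off by 1 base if they were 0-based.

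A peak was assigned by its centre, to a start site within 1000 bases or to a gene's window of 50 kb, with the NCBIM37 genome (mm9) and GENCODE vM1. Overlapping peaks were merged into regions. No sample was left out and no test was made. The members and gene lists were chosen with earlier results of these data known. All 8 genes are named, with up to 3 regions each that lie at no other gene's start site. Genes of the wider list are named if they had a start-site peak in all 7, or in 1 or 2, libraries, and the 3 most alike genes are given for each member with a start-site peak. Naming S100b, Gfap, Dlx5, Rxrg and Sox8 was decided after their values were seen. Some items that these rules select are not reported here. Python 3.11.15, numpy 2.4.6, pandas 2.3.3, scipy 1.17.1, matplotlib 3.10.9 and bedtools 2.31.1 were used. Assignment and merging were tested on simulated data.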

Additional observations from a re-analysis of the deposited data

How the results depend on the processing

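Peaks were recounted with a fold of at least 5, with lists of equal length, by any base of the peak or of its outer region, and with other distances from start sites and genes. The 12 start-site peaks of gene and library (10 to 12) and the 24 listed genes with a start-site peak (18 to 25) stayed within 1.5 times their value under each of these. The ratio of 3.2 between libraries ranged from 2 to 5.5, within its counting interval. At a fold of at least 5, the 74 peaks near the 8 genes became 40 and none (0) of the 19 regions was called in all libraries; the ratio could not be computed there because ATAC3 and ATAC4 then had 0 peaks near these genes. Lists of equal length left 11 regions. A window of 20 kb held 45 peaks and 12 regions, 3 of them in all libraries, and a window of 100 kb held 165 peaks and 48 regions, 10 of them in all libraries. Without peaks at start sites of other genes, an alternative chosen after seeing the data, 44 peaks and 2 regions common to all libraries were left. In each case the setting itself admits fewer or more peaks. Among the main totals alone, 30 recomputed values stayed within such limits and 11 moved. The counts of single genes include those with no start-site peak, whose 0 cannot rise under the stricter settings. Over all 99 recomputed values, 84 stayed within such limits and 15 moved. The latter include the start-site peaks of Nes (0 with lists of equal length) and Tfap2a (0 with lists of equal length or within 500 bases), and the 9 listed genes with peaks in ATAC2, ATAC5 or ATAC6 alone (4 with lists of equal length, recounted after seeing the data). No paired analysis was possible because no title had a replicate, so none could be left out. Total read depth is unknown, and a weak site in the shorter lists ATAC3, ATAC4 and ATAC7 may lie under their threshold.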
